A study of Mus musculus with 6 samples.

Results

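The imprinted genes described here are 41 mouse genes chosen by name from 19 imprinted domains, and 40 of them have a row among the 24520 genes of the deposited tables. The remaining gene, Rian, was not analysed here. By the parental copy commonly described as active in mouse, 22 of the 41 are paternally expressed, 17 are maternally expressed, and for Gnas and Inpp5f the active copy depends on the transcript. The genes were measured by RNA sequencing of endothelial cells, which form the inner lining of blood vessels, sorted from mouse lung by fluorescence. There were 3 libraries labelled KO, for knockout of the DNA methyltransferase gene Dnmt3a, and 3 labelled WT, for wild type. The sources used here give no allele, Cre driver, age or sort gate, and do not say that libraries are separate animals. The p-values therefore measure the spread between these libraries, which may be partly technical.

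Imprinted genes are transcribed mainly from the copy inherited from the mother or mainly from the copy inherited from the father. In most domains the choice is set by a stretch of DNA, the imprinting centre, that is methylated in the egg or in the sperm and keeps that methylation after fertilisation. Dnmt3a, together with its cofactor Dnmt3l, sets most of these marks in the germ line. Many of the genes act on growth: Igf2 drives it, while Igf2r, Grb10 and Cdkn1c restrain it. The deposited values sum both parental copies, so the copy that was read was not measured, and a level could differ through either copy. In sorted cells, a smaller number of cells that use a gene and less RNA of it per cell cannot be told apart.

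Library totals ran from 28136194 to 31402838 estimated counts under KO and from 29482747 to 39999172 under WT. Dnmt3a, the targeted gene, went against its label. It had 172, 161 and 161 CPM (counts scaled to library size) in KO libraries, against 37.6, 36.5 and 31.8 CPM in WT libraries, a log2 difference of 2.22 (SE 0.11, adjusted p = 0.00157 with edgeR). The values are for the whole gene, and single exons were not analysed here. Every direction below is therefore that of libraries labelled KO relative to libraries labelled WT. The replicate numbers carry a sex: Xist and Y-linked counts read replicate 1 as female and replicates 2 and 3 as male under both labels. All 7 endothelial markers examined, among them Pecam1 and Cdh5, were present, with sums of 8372 to 9849 CPM in KO libraries and 8707 to 10279 CPM in WT libraries. Markers of fibroblasts summed to 316 to 458 CPM in KO libraries and 163 to 233 CPM in WT libraries, 7 of 8 had positive fold changes and none was at 0 in every library. Markers of alveolar type 1 cells summed to 11.2 to 23 CPM in KO libraries and 9.04 to 9.83 CPM in WT libraries (2 of 4 positive), and neural and neuroendocrine markers to 1.39 to 3.04 CPM in KO libraries and 0.639 to 0.875 CPM in WT libraries (both of the tested ones positive, of 5), again with none at 0 in every library. Markers of alveolar type 2 cells summed to 3336, 2133 and 624 CPM in KO libraries and to 8793, 196 and 3817 CPM in WT libraries, with all 5 detected. The part of these other cells in the results below was not tested.

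Of the 40 imprinted genes in the tables, 31 passed the filter on low counts and were tested among 14667 genes. None of the 31 passed edgeR's quasi-likelihood test at an adjusted p of 0.05, where 0.0341% of all tested genes did (0.0205% higher and 0.0136% lower in KO libraries). At an unadjusted p under 0.05 there were 12 imprinted genes, against a background of 12.6%. Of these, 4 were higher in KO libraries, where 6.88% of all tested genes were, and 8 were lower, where 5.77% were. DESeq2, run as the alternative test, called 7 imprinted genes at an adjusted p under 0.05, where it called 2.65% of all tested genes. H19, Mest, Copg2, Grb10 and Plagl1 were lower in KO libraries, against a background of 1.21%, and Sgce and Ube3a were higher, against 1.44%. The lowest edgeR adjusted p among the 31 was 0.216, for Sgce.

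In CPM, all KO libraries lay apart from all WT libraries in 15 of the 31 imprinted genes, or 48.4%, where 20.3% of all tested genes did so. That count depended on the scaling: it was 13 of 31 with library size only, and 13 of 31 with upper-quartile factors. The share over all genes was not set beside those counts. In TPM, Igf2r and Sfmbt2 overlapped. Of the 15, 9 were lower in KO libraries, against a background of 9.42% in that direction, and 6 were higher, against 10.9%. The direction of the 31 as a group was close to that of all genes: 17 had negative and 14 positive log2 fold changes, with a median of -0.03, against 0.01 over all tested genes. Maternally expressed genes had 9 negative and 4 positive values with a median of -0.26. Paternally expressed genes were split 8 to 8 with a median of 0.08. Both kinds thus held genes on either side of 0, and the difference between them was not tested. For Copg2, Ube3a, Blcap and Trappc9, counted as maternal, imprinting is described mainly in brain. For Slc22a18, Asb4 and Ppp1r9a, also maternal, and for the paternal Sfmbt2 it is described mainly in placenta or other restricted tissue. The grouping therefore does not say which copy was read in these cells. As the genes were picked with earlier results of these data known, these counts describe the list and support no claim about imprinted genes at large.

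**Figure D1:**
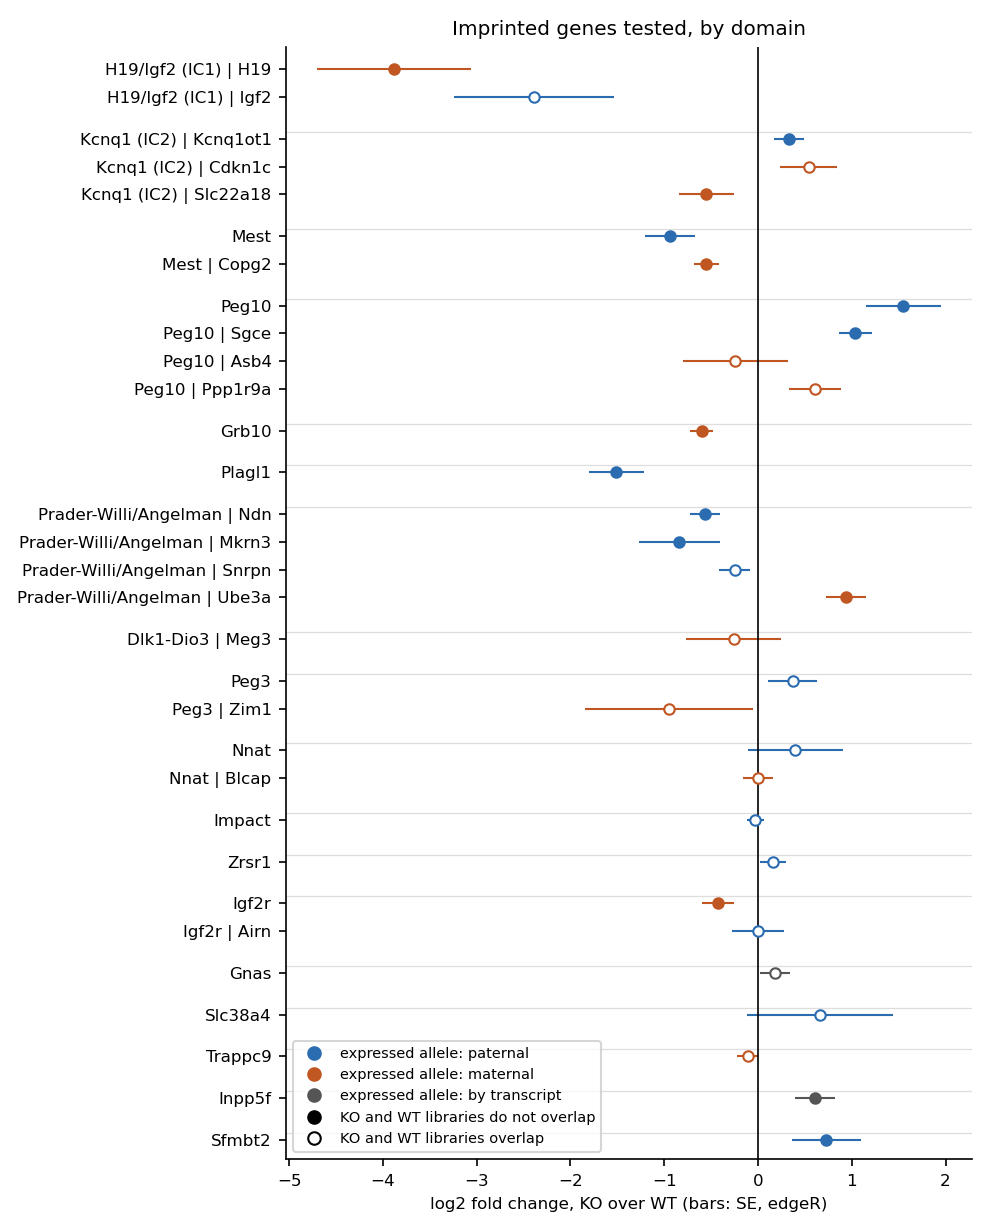
Log2 fold change of KO over WT libraries for the 31 imprinted genes tested, grouped by domain from top to bottom, with bars for the standard error from edgeR. Filled points are the 15 genes whose KO and WT libraries do not overlap in CPM, and H19 at -3.88 and Peg10 at 1.55 are the extremes.

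The H19/Igf2 domain on chromosome 7 held the lowest fold changes of the set. H19 (ENSMUSG00000000031, mm10 142575529 to 142578143, minus strand) is a maternally expressed noncoding RNA. It had 30.8, 25.3 and 18.8 CPM in KO libraries 1, 2 and 3, against 101, 151 and 852 CPM in WT libraries 1, 2 and 3; that order of replicates holds for every set of values below. All KO libraries lay below all WT libraries, and WT replicate 3 stood far above the other WT libraries. Its log2 fold change was -3.88 (SE 0.82, edgeR unadjusted p = 0.00188, adjusted p = 0.24; DESeq2 adjusted p = 0.00626). Without WT replicate 3 the log2 fold change was -2.33 (edgeR adjusted p = 0.253), so much of the size of the difference came from that library. Leaving out a library cannot change the order of labels that do not overlap.

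Igf2 (ENSMUSG00000048583, 142650766 to 142666816, minus strand), the paternally expressed insulin-like growth factor 2 gene, had 28.1, 10.7 and 13.4 CPM in KO libraries, against 24.7, 33.9 and 215 CPM in WT libraries. KO replicate 1 lay above WT replicate 1, so the labels overlapped, and WT replicate 3 was again the highest. The log2 fold change of -2.39 (SE 0.85, edgeR unadjusted p = 0.0246, adjusted p = 0.341) became -0.75 without that library (unadjusted p = 0.129). Per length, H19 stood at 0.997, 2.06 and 1.28 times the TPM (a level per transcript length) of Igf2 in KO libraries and at 3.61, 3.84 and 3.36 times in WT libraries. The WT ratios were close to each other although the levels behind them were not, and all exceeded the KO ratios.

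Of the cell type marker lists, the endothelial one alone had its highest sum of the 6 libraries in WT replicate 3, at 10279 CPM. The alveolar type 2 sum there, 3817 CPM, lay below the 8793 CPM of WT replicate 1. Among WT libraries, replicate 3 was highest for pericyte and smooth muscle markers, at 407 CPM against 284 and 94.7 CPM in replicates 1 and 2. It was also highest among them for fibroblast markers, at 233 CPM against 205 and 163 CPM. KO replicate 1 had higher sums than all of these, at 475 and 458 CPM. Single markers differed: Pdgfrb and Cspg4 were highest of the 6 libraries in WT replicate 3, at 85.7 and 14.1 CPM. Acta2, Myh11, Rgs5, Cnn1 and Notch3 of the same list were highest in a KO library. Among fibroblast markers, Mfap4 alone was highest in WT replicate 3, at 39.8 CPM. The part of such cells in H19 and Igf2 was not tested. H19 also hosts the microRNA miR-675, whose mature forms lie inside an exon of H19. They are shown because their host had the lowest fold change of the set; the mature microRNAs themselves were not measured. In these RefSeq sequences (GRCm38.p6), capitals mark the seed, bases 2 to 8. They lie on chromosome 7, minus strand, at 142577112 to 142577133 (5p) and 142577078 to 142577099 (3p).
mmu-miR-675-5p: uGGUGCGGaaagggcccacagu
mmu-miR-675-3p: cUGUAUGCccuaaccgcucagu

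**Figure D2:**
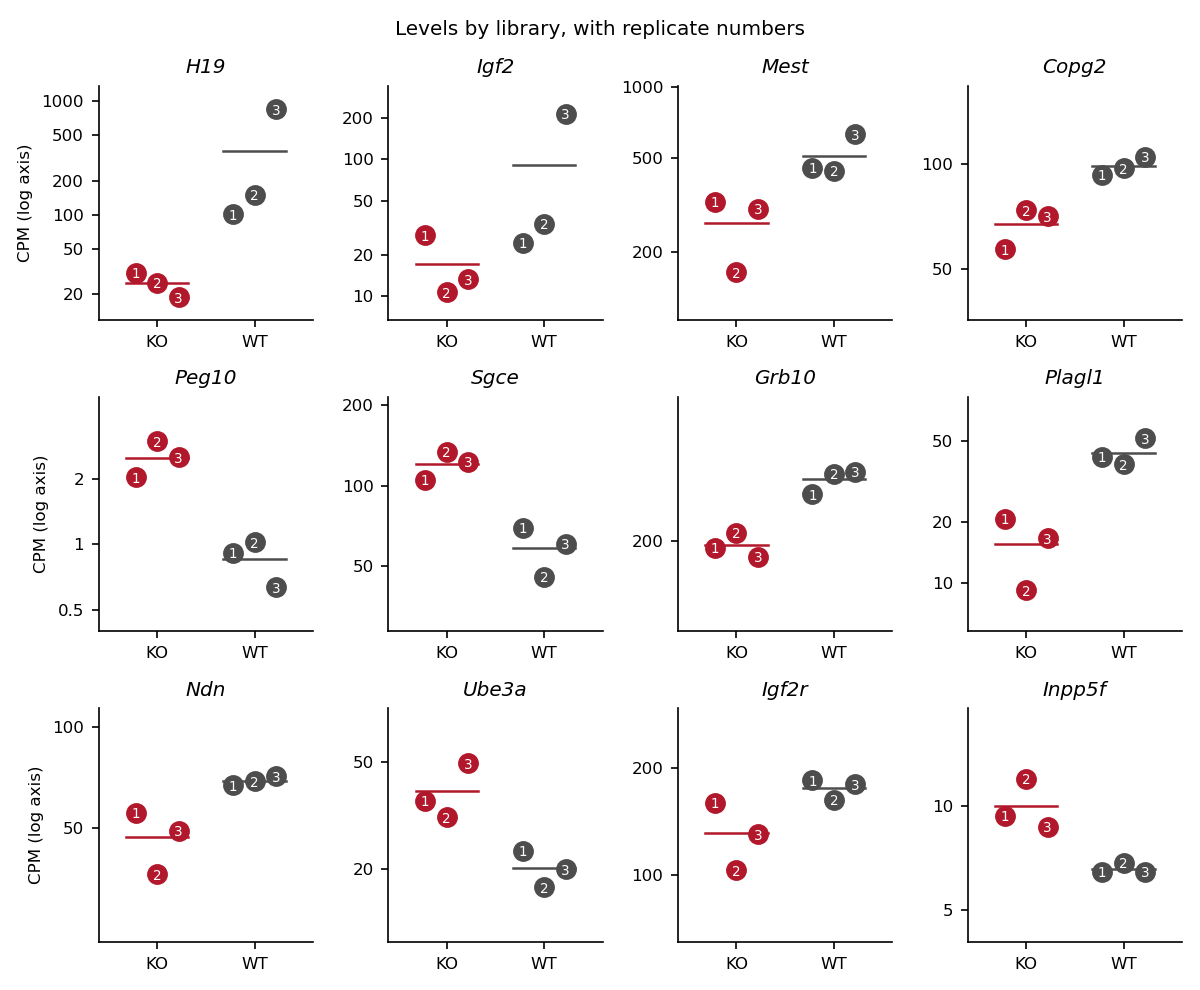
CPM on a log axis for the 12 imprinted genes with an unadjusted p under 0.05, KO libraries left and WT libraries right, with the replicate number inside each point and a line at the mean of the label. In 11 of the 12 the labels do not overlap; in Igf2 KO replicate 1 (28.1 CPM) lies above WT replicate 1 (24.7 CPM).

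The neighbouring Kcnq1 domain, ruled by a separate imprinting centre on chromosome 7, showed small differences. Kcnq1ot1, a long paternally expressed RNA that silences genes around it, had 553, 518 and 542 CPM in KO libraries, against 499, 456 and 331 CPM in WT libraries. The labels did not overlap, but the log2 fold change was 0.33 (SE 0.16, edgeR adjusted p = 0.443). Cdkn1c, a maternally expressed inhibitor of cyclin-dependent kinases, had 14.5, 8.98 and 11.0 CPM in KO libraries, against 10.9, 6.67 and 6.10 CPM in WT libraries. The ranges overlapped and the log2 fold change of 0.54 (SE 0.30) had an edgeR adjusted p of 0.474. The silencing RNA and a gene it silences were thus both higher on average in KO libraries.

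Slc22a18, a maternally expressed transporter gene of the same domain, had 2.30, 2.87 and 2.67 CPM in KO libraries, against 3.56, 3.86 and 4.08 CPM in WT libraries. All KO values were below all WT values (log2 fold change -0.55, SE 0.29, edgeR adjusted p = 0.453). Ascl2 and Phlda2, known for their roles in the placenta, were close to absent. Phlda2 had 3 counts in all, in KO replicate 2, and Ascl2 had 0 counts over the KO libraries and 8 over the WT libraries. A count of 0 in a library allows up to 3 counts, or 0.075 to 0.107 CPM. Kcnq1ot1 lies wholly within the span of the opposite-strand gene Kcnq1 and shares 121 exon bases with it. Without strand, reads of those bases, or of unspliced Kcnq1 RNA along the rest of Kcnq1ot1, cannot be assigned.

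The Mest domain on chromosome 6 was lower in KO libraries at both of its genes. Mest (ENSMUSG00000051855, mm10 30723547 to 30748465, plus strand), a paternally expressed gene of the hydrolase family, had 327, 165 and 306 CPM in KO libraries, against 457, 444 and 632 CPM in WT libraries. All KO libraries lay below all WT libraries, with KO replicate 2 the lowest. The log2 fold change was -0.94 (SE 0.27, edgeR unadjusted p = 0.00991, adjusted p = 0.297; DESeq2 adjusted p = 0.0192).

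Copg2 (ENSMUSG00000025607, 30747554 to 30896794, minus strand) encodes a coat protein of transport vesicles and is described as maternally expressed, mainly in brain. It had 56.9, 73.7 and 70.9 CPM in KO libraries, against 93.4, 97.5 and 105 CPM in WT libraries. The labels did not overlap (log2 fold change -0.55, SE 0.13, edgeR adjusted p = 0.266; DESeq2 adjusted p = 0.0159). The ends of Mest and Copg2 share 912 exon bases on opposite strands, so reads of that stretch could belong to either gene. KO replicate 2 was the lowest KO library for Mest and the highest for Copg2.

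An intron of Mest holds miR-335. Its RefSeq mature sequences are shown as a product of the host with the highest level among the genes lower in KO libraries; they were not measured either. Capitals mark the seed as before, and the positions are 30741314 to 30741336 (5p) and 30741354 to 30741375 (3p), plus strand. None of the 4 seeds printed is shared between the hosts.
mmu-miR-335-5p: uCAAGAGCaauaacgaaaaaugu
mmu-miR-335-3p: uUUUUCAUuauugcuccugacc

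The Peg10 domain, elsewhere on chromosome 6, was higher in KO libraries at its paternally expressed pair. Sgce (ENSMUSG00000004631, mm10 4674350 to 4747207, minus strand), which encodes epsilon-sarcoglycan of the cell membrane, had 105, 134 and 123 CPM in KO libraries, against 69.7, 45.6 and 60.5 CPM in WT libraries. The lowest KO library was above the highest WT library. The log2 fold change was 1.04 (SE 0.18, edgeR unadjusted p = 0.000477, adjusted p = 0.216; DESeq2 adjusted p = 5.87e-05). Peg10 (ENSMUSG00000092035, 4747306 to 4760517, plus strand), a gene derived from a retrotransposon and needed in the placenta, starts 98 bases from Sgce and runs the other way. It had 2.03, 2.97 and 2.51 CPM in KO libraries, against 0.913, 1.02 and 0.636 CPM in WT libraries. Again no values overlapped (log2 fold change 1.55, SE 0.40, edgeR unadjusted p = 0.00558, adjusted p = 0.282; DESeq2 adjusted p = 0.0679).

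The pair kept a steep order of levels: Sgce had 201 to 228 times the TPM of Peg10 in KO libraries and 206 to 438 times in WT libraries. Ppp1r9a, which encodes the actin-binding protein neurabin, had 75.2, 45.1 and 72.8 CPM in KO libraries, against 51.8, 47.0 and 27.4 CPM in WT libraries. Its labels overlapped (log2 fold change 0.61, SE 0.28, edgeR adjusted p = 0.412). Asb4, a maternally expressed gene with ankyrin repeats, ranged from 1.02 to 5.23 CPM over the 6 libraries, and its log2 fold change of -0.24 (SE 0.56) was smaller than its standard error. Casd1, on the other side of Sgce and chosen after its values were seen, had 71.7, 56.7 and 75.1 CPM in KO libraries and 69.3, 57.9 and 51.3 CPM in WT libraries (log2 fold change 0.19, SE 0.16). Beside the Sgce result stand the fibroblast markers given above, which were also higher in KO libraries; Col3a1 of that list passed edgeR's test (log2 fold change 1.22, SE 0.11, adjusted p = 0.0223). Col1a2, also in it, lies within 500 kb of Peg10 and stood at 0.88 on the log2 scale (SE 0.32, edgeR adjusted p = 0.342). Their part in it was not tested.

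Grb10 and Plagl1 form a domain each, and both were lower in KO libraries. Grb10 (ENSMUSG00000020176, mm10 chromosome 11, 11930508 to 12038683, minus strand) encodes an adaptor that dampens signalling from the insulin and IGF receptors, expressed from the maternal copy outside the nervous system. It had 192, 211 and 181 CPM in KO libraries, against 269, 306 and 310 CPM in WT libraries. The labels were apart, and the spread within each was narrow. The log2 fold change was -0.60 (SE 0.12, edgeR unadjusted p = 0.00116, adjusted p = 0.24; DESeq2 adjusted p = 0.000237).

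Plagl1 (ENSMUSG00000019817, chromosome 10, 13060504 to 13131694, plus strand), a paternally expressed zinc-finger transcription factor that halts the cell cycle when overexpressed, had 20.7, 9.21 and 16.6 CPM in KO libraries, against 41.9, 38.4 and 51.7 CPM in WT libraries. No values overlapped, and KO replicate 2 was the lowest of the 6 libraries. The log2 fold change was -1.51 (SE 0.29, edgeR unadjusted p = 0.00107, adjusted p = 0.24; DESeq2 adjusted p = 0.000164). Of the genes in the set with all libraries apart, this was the largest difference after H19 and Peg10.

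Many imprinting centres are bound by ZFP57, a zinc-finger protein that reads the methylated letters TGCCGC and keeps the imprint. A RefSeq promoter of each of Plagl1, Mest and Grb10 is printed because these 3 genes were lower in KO libraries together. The promoters were chosen as ones that hold the letters, read as GCGGCA on the printed strand, which capitals mark. Each runs from 250 bases before to 50 bases after a start site on GRCm38.p6. The Plagl1 stretch is chr10:13090582-13090881 (plus strand) with 26 CpG, the Mest stretch is chr6:30737800-30738099 (plus strand) with 17 CpG, and the Grb10 stretch is chr11:12037371-12037670 (minus strand) with 45 CpG.
Plagl1: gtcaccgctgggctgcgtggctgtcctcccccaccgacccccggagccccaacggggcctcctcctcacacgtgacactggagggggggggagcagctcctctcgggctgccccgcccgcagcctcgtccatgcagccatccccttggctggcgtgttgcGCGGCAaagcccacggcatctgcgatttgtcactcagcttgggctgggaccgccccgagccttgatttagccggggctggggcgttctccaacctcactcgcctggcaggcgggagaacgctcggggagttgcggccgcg
Mest: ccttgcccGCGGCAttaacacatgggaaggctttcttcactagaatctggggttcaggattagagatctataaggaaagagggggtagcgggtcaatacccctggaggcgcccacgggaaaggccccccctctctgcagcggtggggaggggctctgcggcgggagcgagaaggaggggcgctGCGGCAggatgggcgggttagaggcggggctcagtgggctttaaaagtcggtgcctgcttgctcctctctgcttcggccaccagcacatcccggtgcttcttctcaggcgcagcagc
Grb10: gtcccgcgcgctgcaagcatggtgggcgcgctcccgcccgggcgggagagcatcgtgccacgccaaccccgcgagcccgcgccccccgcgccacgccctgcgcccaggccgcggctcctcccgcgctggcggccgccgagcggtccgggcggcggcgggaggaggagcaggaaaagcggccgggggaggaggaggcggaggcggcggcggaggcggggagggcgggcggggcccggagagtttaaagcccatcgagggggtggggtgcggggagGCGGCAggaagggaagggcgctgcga

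The printed Mest promoter holds 2 matches, and those printed of Plagl1 and Grb10 hold 1 each. A further Mest promoter, from 30733256, and a further Grb10 promoter, from 12027922, held none. Searched on both strands, the letters were found in 10 of 52 promoters of 34 of the imprinted genes, or 19.2%. Over the table they were in 3813 of all 32851 promoters, or 11.6%. The 10 include a Mest promoter from 30737803 that overlaps nearly all of the printed one. The imprinted genes' promoters had a median of 13 CpG, against 7 over the table, and the letters themselves hold a CpG. The other promoters with a match belong to Copg2, Igf2, Meg3, Zim1, Snrpn and Nnat. Ndn, Mkrn3, Igf2r and Slc22a18 were also lower in KO libraries without overlap in CPM, and their promoters held no match. A relation between a match and the direction of a gene was not tested. Not matched by symbol were H19, Cdkn1c, Peg10, Sgce, Rtl1, Impact and Trappc9. A match is a run of letters only; neither methylation nor binding was measured here.

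In the Prader-Willi/Angelman domain on chromosome 7 the tested paternally expressed genes had negative log2 fold changes and Ube3a had a positive one. Ndn (ENSMUSG00000033585, mm10 62346569 to 62350262, plus strand), which encodes the growth-restraining protein necdin, had 55.4, 36.3 and 49.0 CPM in KO libraries, against 67.1, 68.9 and 71.4 CPM in WT libraries. No values overlapped (log2 fold change -0.56, SE 0.16, edgeR unadjusted p = 0.00944, adjusted p = 0.293; DESeq2 adjusted p = 0.0777). Mkrn3, a ring-finger gene, had 2.77, 3.04 and 1.15 CPM in KO libraries, against 4.56, 4.57 and 3.34 CPM in WT libraries. It too was without overlap, though at a low level (log2 fold change -0.84, SE 0.43, edgeR adjusted p = 0.445). Snrpn, a splicing protein gene, ranged from 13.6 to 20.4 CPM over the 6 libraries with overlap (log2 fold change -0.25, SE 0.17), and shares 216 exon bases with Snurf. Magel2 had 20 counts over the KO libraries and 178 over the WT libraries, most of them in WT replicate 3 (4.59 CPM), and was below the filter.

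Ube3a (ENSMUSG00000025326, 59228750 to 59311536, plus strand), a ubiquitin ligase expressed from the maternal copy in neurons and from both copies in most other cells, had 35.8, 31.2 and 49.5 CPM in KO libraries, against 23.4, 17.1 and 20 CPM in WT libraries. All KO libraries lay above all WT libraries. The log2 fold change was 0.94 (SE 0.21, edgeR unadjusted p = 0.00241, adjusted p = 0.252; DESeq2 adjusted p = 0.00773). Its antisense partner Snhg14, which shares 1803 exon bases with it, is listed at 0 in every library. Per length, Ube3a had 0.945 to 1.22 times the TPM of Snrpn in KO libraries and 0.402 to 0.608 times in WT libraries.

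The Dlk1-Dio3 domain on chromosome 12 was nearly silent apart from Meg3. Meg3, a maternally expressed noncoding RNA, had 19, 14.3 and 9.24 CPM in KO libraries, against 28.0, 6.30 and 16.4 CPM in WT libraries. WT replicates 1 and 2 were the extremes of all 6 libraries, and the log2 fold change of -0.26 (SE 0.51) was within its error. Dlk1, which encodes a Notch-like ligand and is paternally expressed, had 7, 0 and 0 counts in KO libraries, against 68, 5 and 4 counts in WT libraries, and was below the filter. Most of its counts lay in replicate 1 under either label. Rtl1 had 33 counts over the KO libraries and 25 over the WT libraries. Mirg, which carries many microRNAs, had 14 and 8 counts over KO and WT libraries, and Dio3, a deiodinase gene, had 0 and 9.

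Several domains showed no separation of the labels. Peg3, a paternally expressed zinc-finger gene on chromosome 7, had 128, 117 and 213 CPM in KO libraries, against 101, 147 and 107 CPM in WT libraries (log2 fold change 0.37, SE 0.26). Zim1, maternally expressed in the same domain, had 0.609, 0.0660 and 0.542 CPM in KO libraries, against 1, 1.15 and 0.212 CPM in WT libraries (log2 fold change -0.95, SE 0.90). Both overlapped, with edgeR adjusted p of 0.567 for Peg3 and 0.678 for Zim1. Usp29, a deubiquitinase gene that starts 146 bases from Peg3 on the opposite strand, had 9 counts over the KO libraries and 34 over the WT libraries.

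Nnat and Blcap share a domain on chromosome 2, where Nnat, a paternally expressed gene for a small membrane protein, lies in an intron of Blcap. Nnat had 3.42, 1.35 and 1.69 CPM in KO libraries, against 2.37, 1.22 and 1.30 CPM in WT libraries (log2 fold change 0.40, SE 0.51). Blcap had 30.1, 40.0 and 29.4 CPM in KO libraries, against 30.0, 34.4 and 35.0 CPM in WT libraries, with a log2 fold change of 0.00085 (SE 0.16). Neither separated the labels. Impact, on chromosome 18, a regulator of translation under stress, had the smallest standard error of the set, with 73.4, 76.4 and 73.1 CPM in KO libraries, against 79.4, 74.9 and 73.7 CPM in WT libraries (log2 fold change -0.03, SE 0.09). Zrsr1, a splicing factor gene inserted in an intron of Commd1 on chromosome 11, had 28.0, 35.4 and 29.9 CPM in KO libraries, against 25.3, 29.6 and 28.3 CPM in WT libraries (log2 fold change 0.16, SE 0.14). Zrsr1 and Commd1 share 412 exon bases on opposite strands.

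Igf2r (ENSMUSG00000023830, mm10 chromosome 17, 12682406 to 12769664, minus strand), the maternally expressed receptor that clears Igf2 into lysosomes, had 160, 103 and 130 CPM in KO libraries, against 185, 163 and 180 CPM in WT libraries. KO replicate 1 lay just below WT replicate 2, and the labels did not overlap in CPM (log2 fold change -0.43, SE 0.17, edgeR unadjusted p = 0.0377, edgeR adjusted p = 0.37, DESeq2 adjusted p = 0.216). In TPM, Igf2r did overlap: KO replicate 1 had 31.1, against 30.1 and 30.3 in WT replicates 2 and 3. Airn, the paternally expressed RNA that runs across it and silences it on that copy, had 15.1, 9.28 and 16.4 CPM in KO libraries, against 17.5, 12.5 and 10.8 CPM in WT libraries. Its labels overlapped, and its log2 fold change was -0.0011 (SE 0.28). The genes share no exon bases in the annotation, although Airn lies over the start of Igf2r.

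Gnas, on chromosome 2, which encodes the stimulatory G protein subunit and several other transcripts, had the highest mean TPM of the set. It had 403, 317 and 457 CPM in KO libraries, against 347, 308 and 387 CPM in WT libraries (log2 fold change 0.18, SE 0.16, edgeR adjusted p = 0.675). Trappc9, a vesicle trafficking gene on chromosome 15, had 131, 138 and 120 CPM in KO libraries, against 138, 151 and 129 CPM in WT libraries (log2 fold change -0.11, SE 0.11). Both overlapped between the labels. Slc38a4, an amino acid transporter gene on the same chromosome, had 4.13, 1.16 and 1.08 CPM in KO libraries, against 0.974, 0.474 and 2.57 CPM in WT libraries (log2 fold change 0.66, SE 0.78). Each label held a library well above its other 2.

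Inpp5f (ENSMUSG00000042105, mm10 chromosome 7, 128611328 to 128696425, plus strand), a phosphoinositide phosphatase gene with an imprinted brain transcript, had 9.37, 12 and 8.70 CPM in KO libraries, against 6.45, 6.84 and 6.44 CPM in WT libraries. All KO values were above all WT values (log2 fold change 0.61, SE 0.21, edgeR unadjusted p = 0.0226, adjusted p = 0.336; DESeq2 adjusted p = 0.204). Sfmbt2, a paternally expressed Polycomb gene on chromosome 2, had 3.25, 2.08 and 2.07 CPM in KO libraries, against 1.43, 1.59 and 1.43 CPM in WT libraries. It was also without overlap in CPM (log2 fold change 0.73, SE 0.37, edgeR adjusted p = 0.447). In TPM it overlapped, with 0.509 in KO replicate 2 and 0.519 in WT replicate 3. Rasgrf1, an exchange factor for Ras on chromosome 9, had 6 counts over the KO libraries and 24 over the WT libraries and was not tested.

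By mean TPM, a level per length that can be compared between genes, Gnas stood first, at 513 ± 97.2 TPM in KO libraries and 427 ± 30.6 TPM in WT libraries (mean ± SD, n = 3 each). Mest followed, at 197 ± 68.4 TPM in KO libraries and 360 ± 56.7 TPM in WT libraries; the labels differed by more than their SDs. H19 had 20 ± 5.37 TPM in KO libraries and 269 ± 297 TPM in WT libraries, where the SD exceeded the mean. Sgce had 135 ± 13.0 TPM in KO libraries and 62.4 ± 12.8 TPM in WT libraries. Kcnq1ot1, at over 300 CPM in each library, had only 10.5 ± 0.632 TPM in KO libraries and 8.04 ± 1.95 TPM in WT libraries, since its exons span 93092 bases.

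**Figure D3:**
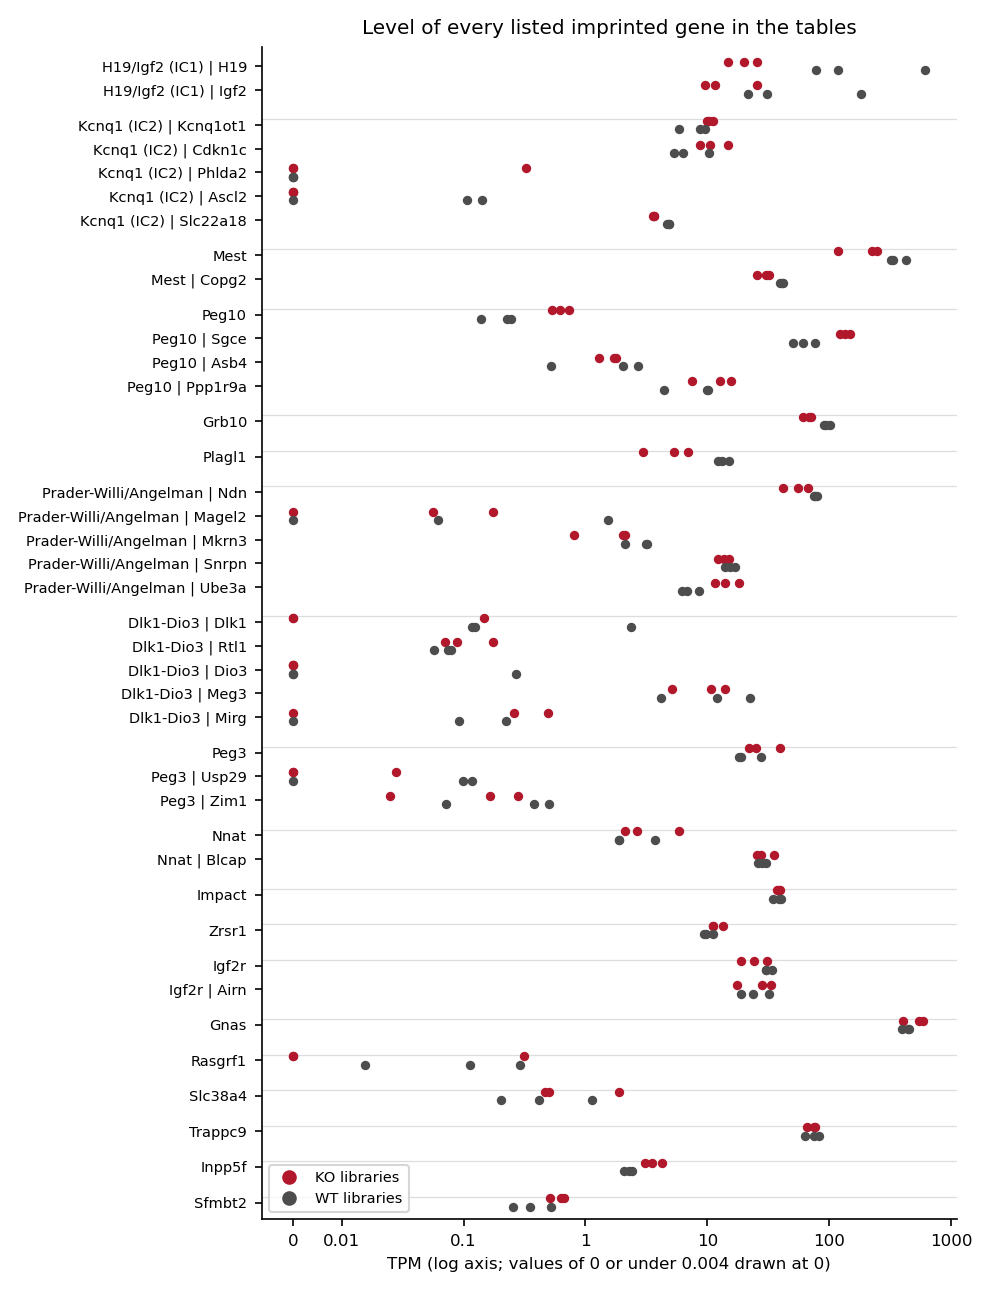
TPM on a log axis of the 40 imprinted genes in the tables, by domain, with KO libraries drawn above WT libraries in each row; each point is a library. Gnas, Mest, H19, Igf2, Sgce and Grb10 reach over 100 TPM in at least 1 library, and the 9 genes below the filter stay under 3 TPM in each library.

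Genes near the domains were examined to see whether whole neighbourhoods moved. Within 500 kb of H19 and Igf2, 11 other genes were tested, with a median log2 fold change of -0.11, a range from -0.40 to 0.45 and none at an unadjusted p under 0.05. Around Plagl1, 9 were tested, from -0.51 to 0.24, again with none. H19, Igf2 and Plagl1 thus lay below the whole range of the tested genes beside them. Around Peg10 and Sgce, 1 of 7 other genes had an unadjusted p under 0.05, the Col1a2 named above.

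Around Mest, of 9 other genes tested within 500 kb, 7 were negative, 5 were lower in KO libraries without overlap, where 9.42% of all tested genes were, and 4 had an unadjusted p under 0.05, where 12.6% did. The median was -0.42 and the highest value was 2.04, for Lncpint. The genes named here were chosen after their values were seen. Tsga13, a testis-associated gene, had 0.169, 0.0991 and 0.271 CPM in KO libraries, against 0.822, 1.52 and 1.43 CPM in WT libraries (log2 fold change -2.78, SE 0.58, edgeR adjusted p = 0.24; DESeq2 adjusted p = 0.0329). Zc3hc1 had a log2 fold change of -0.42 (SE 0.12) and Cep41, a centrosomal gene, of -0.47 (SE 0.16). Cpa1, a carboxypeptidase gene, had a log2 fold change of -1.30 (SE 0.68) and stayed below 2 CPM in each library. Around Impact, 3 of 4 other genes tested had an unadjusted p under 0.05, with a median of 1.37, while Impact itself was even.

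**Figure D4:**
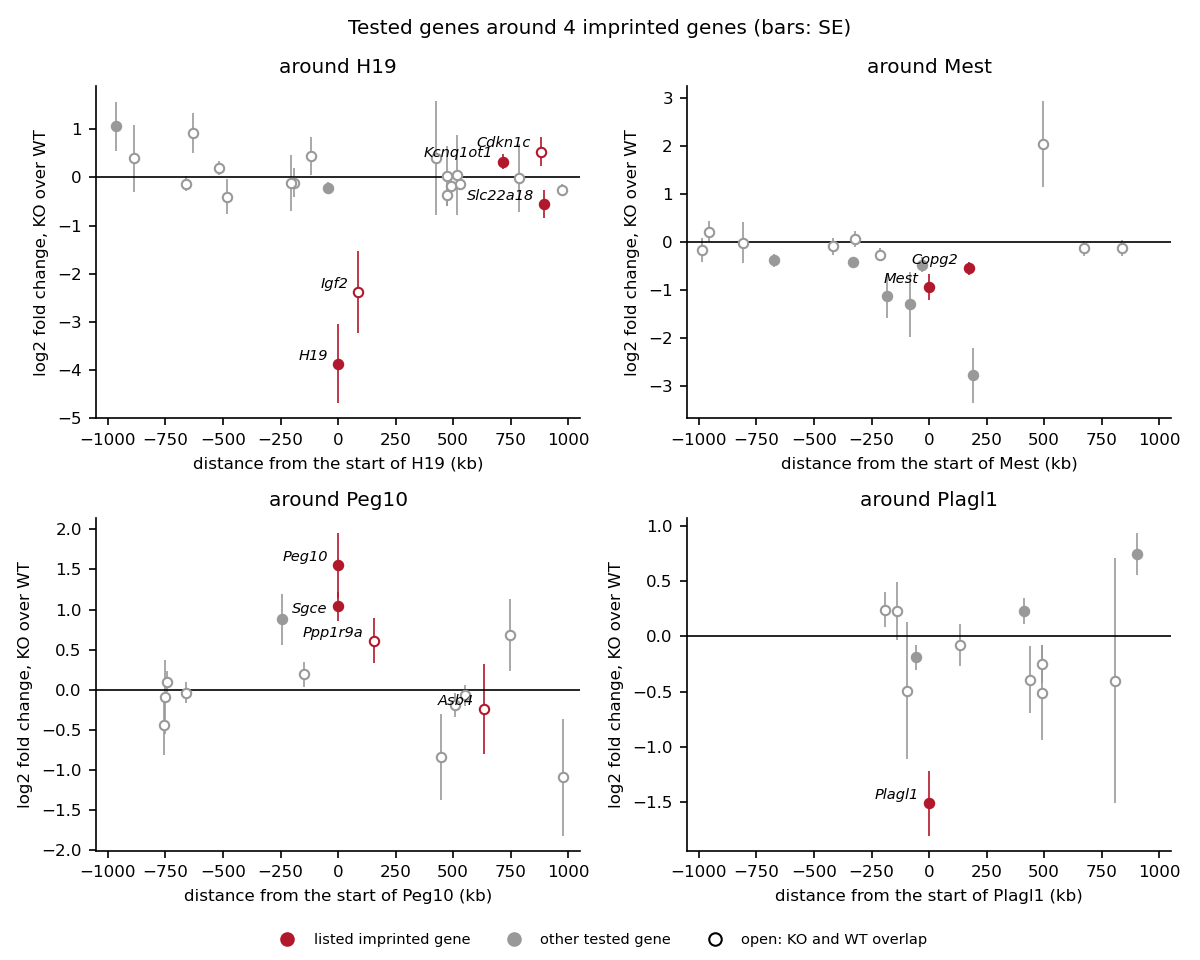
Log2 fold change of KO over WT libraries (bars, SE) against distance in kb from the start of H19, Mest, Peg10 and Plagl1, for imprinted genes of the set and for other tested genes within 1000 kb; open points overlap between labels. Within 500 kb, other genes near the H19 domain lie between -0.40 and 0.45 and those near Plagl1 between -0.51 and 0.24, while 5 of the 9 within 500 kb of the Mest domain are filled and below 0.

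Each library was left out in turn for the 12 genes with an unadjusted p under 0.05; in 11 of them the labels do not overlap, which fixes the sign beforehand. The unadjusted p of Igf2r reached 0.0991, that of Inpp5f 0.0748 and that of Igf2 0.129 in these fits. Among log2 fold changes, Sgce ranged from 0.89 to 1.18, Ube3a from 0.73 to 1.08, Grb10 from -0.67 to -0.55 and Plagl1 from -1.77 to -1.24. KO replicate 2 was the lowest KO library in 15 of the 31 tested genes, against 5 for replicate 1 and 11 for replicate 3, and the highest in 12, against 14 for replicate 1 and 5 for replicate 3. Without it, Mest had a log2 fold change of -0.69, Ndn of -0.41 and Igf2r of -0.28. That library was the lowest of the 6 in Top2a, a gene of dividing cells chosen after its values were seen, which had 136, 45.1 and 88.5 CPM in KO libraries, against 140, 186 and 140 CPM in WT libraries (log2 fold change -0.79, SE 0.36, edgeR adjusted p = 0.411). The part of that in the imprinted genes was not tested.

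**Figure D5:**
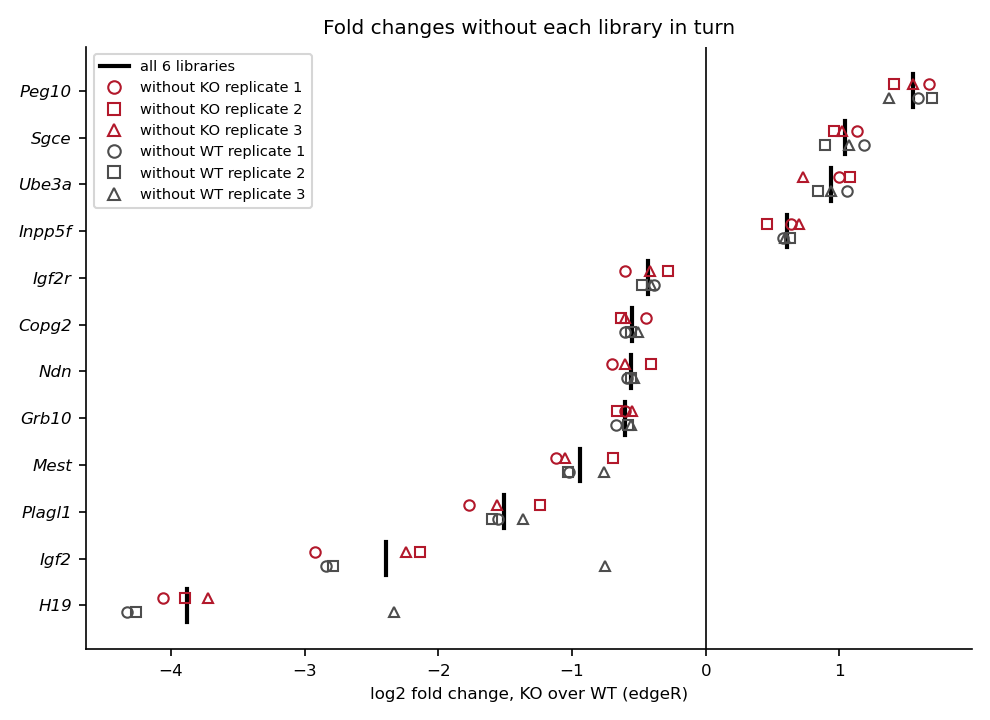
Log2 fold change of KO over WT libraries from edgeR for the 12 imprinted genes with an unadjusted p under 0.05, with all 6 libraries (black bars) and without each library in turn (open symbols). H19 and Igf2 move to -2.33 and -0.75 without WT replicate 3, and Grb10 stays between -0.67 and -0.55.

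Genes that act with the set were listed as well. Of 19 regulators of imprints, 17 were tested: 7 were negative and 10 positive, none passed edgeR's adjusted threshold and DESeq2 called none. At an unadjusted p under 0.05 there were 2 higher and 3 lower, against backgrounds of 6.88% and 5.77%. The lowest p-values were those of Dnmt3b, the other de novo methyltransferase, at 17.1, 10.8 and 14.3 CPM in KO libraries against 18.3, 24.1 and 25.8 CPM in WT libraries (log2 fold change -0.69, SE 0.22, edgeR adjusted p = 0.322), Uhrf1, which guides maintenance methylation (-0.85, SE 0.30), and the histone methyltransferase gene Ehmt2 (0.32, SE 0.11). The median of the list was 0.07.

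All 12 partners in the IGF pathway and its cell cycle targets were tested, 6 negative and 6 positive, with none past edgeR's adjusted threshold and 4 at an unadjusted p under 0.05, against a background of 12.6%. Igfbp3, a binding protein of the IGFs, had 6.90, 7.76 and 5.59 CPM in KO libraries, against 2.56, 1.49 and 0.955 CPM in WT libraries (log2 fold change 2.02, SE 0.41, edgeR adjusted p = 0.24; DESeq2 adjusted p = 0.00153). All KO values exceeded all WT values. Cdk4, a cyclin-dependent kinase gene, had a log2 fold change of -0.53 (SE 0.15, DESeq2 adjusted p = 0.0438), and Igf1r, the receptor that also binds Igf2, of -0.32 (SE 0.11).

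Of 52 other genes described as imprinted in some mouse tissue, 36 were tested, split 18 to 18 around 0 with a median of -0.03. None passed edgeR's adjusted threshold. At an unadjusted p under 0.05, 3 were higher and 4 lower, against backgrounds of 6.88% and 5.77%, and DESeq2 called 2 higher and 1 lower, against 1.44% and 1.21%. Dcn, the decorin gene and a fibroblast marker, had 2.64, 2.58 and 2.47 CPM in KO libraries, against 0.122, 0.135 and 0.212 CPM in WT libraries (log2 fold change 3.99, SE 0.46, edgeR adjusted p = 0.0819; DESeq2 adjusted p = 3.69e-07). It stands in the list whose summed level was higher in KO libraries, and that part was not tested. Gab1, a docking protein of receptor kinases, had a log2 fold change of 0.82 (SE 0.17), and Dhcr7, of cholesterol synthesis, of -0.93 (SE 0.25).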

How the data were processed

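The authors deposited estimated counts per gene, in whole numbers without normalization, and TPM values, which sum to 875864 to 885609 per library. Per the submitters' processing notes, kallisto and mm10 were used; the sources used here state no version, annotation, way of summing to genes or strand. Per the labels' protocols, RNA from few cells was amplified with a SMARTer kit and read in pairs. Symbols and positions came from GENCODE M21 (24298 of 24520 genes; those without a symbol held 0.03% to 0.04% of counts).

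Rounding changed no count. Counts were tested with edgeR 4.0.16 (quasi-likelihood, TMM, filterByExpr by label, Benjamini-Hochberg over 14667 genes, no covariate; limma 3.58.1, R 4.3.3) on all 6 libraries; the SE is the log2 fold change divided by the root of F, and CPM are scaled by TMM. DESeq2 1.42.0, limma on log2(TPM + 1) and others served as alternatives. The floor of 3 counts at 0 covers counting error only. With 3 libraries against 3, an exact permutation test cannot go below 0.10, so none was run per gene. Replicates differed beyond sampling noise (chi-square over degrees of freedom, 47.3 to 105). The test was checked on simulated data.

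The genes, domains and lists were chosen with earlier results of these data known. Values per library are given for Dnmt3a, for imprinted genes whose labels do not overlap and whose mean count is 10 or more, for those with an unadjusted p under 0.05, and for the highest by TPM of each domain and parental origin; each other list names its 3 lowest p-values.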

Additional observations from a re-analysis of the deposited data

How the results depend on the processing

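Over 19 alternatives, 535 of 542 values of 29 imprinted genes kept their side of the adjusted threshold; the other 7 passed it, all with DESeq2, and no called value changed sign. Airn, Blcap, Impact, Meg3, Nnat and Slc38a4 changed sign in at least 1 alternative without being called. Peg10, Sfmbt2, Slc38a4 and Zim1 could not be tested under every filter. edgeR called 5 genes in all; DESeq2 called 389, limma on log2(TPM + 1) with any TPM above 0 called 3, and sex as a covariate left 2. DESeq2 called 7 imprinted genes; each other alternative called 0, with 10 to 13 at an unadjusted p under 0.05. The median log2 fold change of the imprinted genes was -0.19 with no filter on low counts, when all 40 were included, and -0.24 to 0.04 without each library in turn. All genes called without each library in turn numbered 1 to 4: 1 without WT replicate 1 or WT replicate 3, 2 without KO replicate 3 and 3 without KO replicate 1. Imprinted genes without overlap numbered 12 to 19, but the settings are not alike. The count of 12 was of 27 genes tested with limma on log2(TPM + 1). With library size only, and with upper-quartile factors, it was 13 of the same 31 genes on the same 6 libraries. Counts of 19 came only from fits with a library left out, such as 19 of 32 without WT replicate 3. Fewer libraries have to lie apart there, and the share over all genes was not set beside these counts.

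Whether the replicate numbers pair the libraries is not known from the labels. Correlations of same-numbered deviations were 0.282, -0.0477 and -0.18, and those of other pairs ran from -0.316 to 0.358. They cannot decide it, since the deviations sum to 0 within each label. The numbers match in sex under both labels. With the replicate number as a block, edgeR called 0 genes (1472 at an unadjusted p under 0.05), and the log2 fold change of Dnmt3a was 2.23 with an adjusted p of 0.0679. The cause of these changes was not tested. Depth limits the 9 genes below the filter, where 3 counts are 0.075 to 0.107 CPM.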
